A study of Mus musculus with 9 samples.

Results

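The genes described here encode proteins of the complement and coagulation cascades. A list of 39 symbols was matched to the array by gene symbol, using probe sets that name a single gene and, where a gene had several, the probe set with the highest mean signal. A value was obtained for 36 of the 39 listed genes, out of 19938 genes tested on the array. These were 18 of 20 complement genes and 18 of 19 coagulation genes. No probe set was named with C3, the central protein of complement, or with Cfd, the protease that activates factor B, and the only probe set naming Klkb1, plasma prekallikrein, also named Cyp4v3. These 3 genes therefore have no value here.

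The samples were livers of male C57Bl/6J mice fed normal protein (NP, 15 energy%) or high protein (HP, 50 energy%) at a low fat (LF, 10 energy%) or high fat (HF, 35 energy%) level. By the study's diet compositions, HP diets held less cornstarch and sucrose than NP diets at equal fat. HF diets likewise held less of both than LF diets at equal protein. More protein or fat and less carbohydrate therefore came together and cannot be told apart. All mice, including a reference group killed at week 0, had first received LF-NP during a run-in. The labels give ages of 12, 13 and 22 weeks for week 0, week 1 and week 12, and liver was taken after a calibrated meal. By the protocol the diets began at 12 weeks of age and lasted up to 12 weeks, which the label of 22 weeks does not match, so the age of the last pools is uncertain. RNA of 5 mice was pooled for each of the 9 combinations of diet and week, and each pool was hybridised to 1 Affymetrix Mouse Gene 1.0 ST array. No combination was repeated, so the errors given below come from the residuals of an additive model of protein, fat and week in the 8 diet pools. They hold no separate estimate of the spread between mice, and the number of arrays limits the precision. Over the genes tested the array medians differed by at most 0.06 on the log2 scale, and correlations between arrays ranged from 0.993 to 0.997. Hepatocyte markers had an overlapping summed log2 signal of 16.30 to 16.41 in HP pools and 16.31 to 16.38 in NP pools, with albumin (Alb) between 13.72 and 14.05 in the diet pools.

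Complement is a plasma protease cascade that marks and lyses microbes. It is started by C1q, by mannose-binding lectins or by the alternative pathway, and it ends in a pore assembled from the terminal components. Coagulation is a second protease cascade, which turns prothrombin into thrombin and fibrinogen into fibrin and is held in check by the protein C system. Hepatocytes make most of the plasma proteins of both cascades, whereas C1q and properdin come mainly from macrophages and other myeloid cells, so 32 of the measured genes were classed as hepatocyte-derived and 4 (C1qa, C1qb, C1qc and Cfp) as myeloid.

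The question of the main comparison was how hepatic expression differed between HP and NP diets, which also differed in carbohydrate. Of the 36 genes, 30 had a lower mean in HP than in NP pools, with a median difference of −0.09 on the log2 scale, whereas 51.9% of all genes were below 0 with a median of −0.00. The most negative differences were those of C4bp (−0.47), F11 (−0.40), C8b (−0.32), C8a (−0.28) and C6 (−0.28), and the clearest exception was Pros1, at 0.38. None of the 36 genes passed a Benjamini-Hochberg adjusted p of 0.05 in limma, a threshold passed by 0.441% of all genes. At an unadjusted p of 0.05, 10 genes were lower and 1 was higher in HP pools, against 5.66% and 4.59% of all genes. All 4 HP pools lay below all 4 NP pools for 11 of the 36 genes (Mbl1, Cfb, C6, C8a, C8b, C8g, C4bp, Proc, Proz, F11 and Fga), against 2.91% of all genes. The opposite order was seen for 0 of the 36, against 1.88% of all genes. When each HP pool was paired with its NP counterpart at equal fat and week, 17 genes were lower in all 4 comparisons (8.11% of all genes) and 1, Pros1, was higher in all 4 (6.01% of all genes). The shares of all genes were not matched to the 36 genes for signal level. With genes above the median level alone, 219 of 9969 passed the adjusted threshold in limma, C4bp among them.

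Complement and coagulation genes had the same number of negative differences, 15 of 18 in each. The complement median was −0.13 and the coagulation median −0.06. Of the complement genes, 6 had an unadjusted p under 0.05 in the lower direction, whereas of the coagulation genes 4 did so in the lower and 1 in the higher direction. The order of the medians was not the same in every matched comparison. In the pools LF week 1, HF week 1, LF week 12 and HF week 12 the complement medians were −0.17, −0.11, −0.13 and −0.16, and the coagulation medians were −0.05, −0.14, −0.02 and −0.08. The coagulation median was thus the more negative of the pair in the HF pools of week 1. Leaving out the 4 myeloid genes gave a complement median of −0.18, with 11 of 14 genes below 0. Without them the complement medians in the same order were −0.15, −0.29, −0.11 and −0.16. Each was more negative than the coagulation median of its pair.

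**Figure D1:**
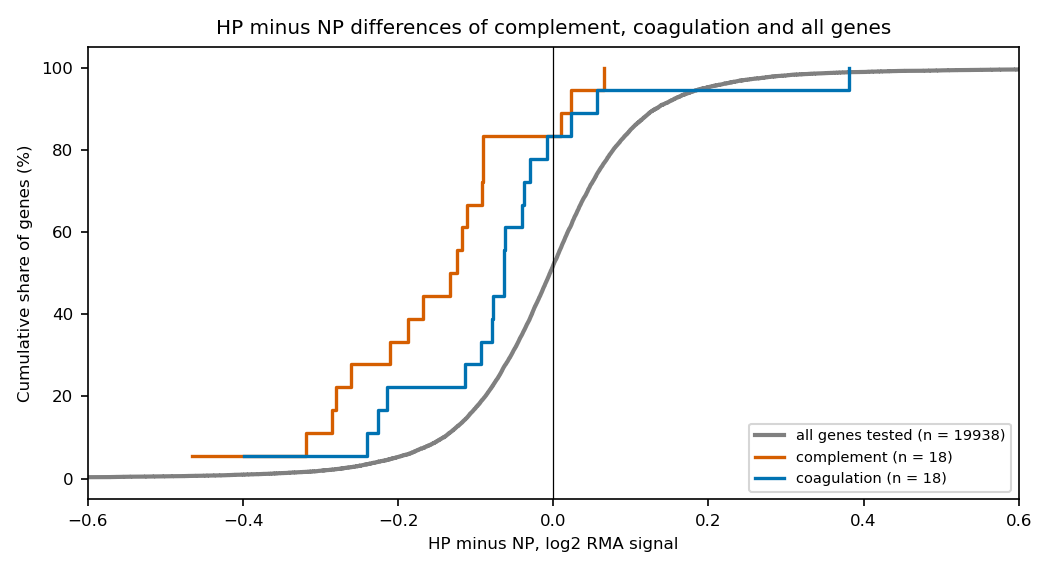
Cumulative share of genes (y axis, %) at or below each HP minus NP difference (x axis, log2 RMA signal from the additive fit) for 18 complement genes, 18 coagulation genes and all 19938 genes tested. At a difference of 0 the complement and coagulation lines stand at 15 of 18 genes and the line for all genes at 51.9%, and the coagulation line ends at Pros1 (0.38).

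**Figure D2:**
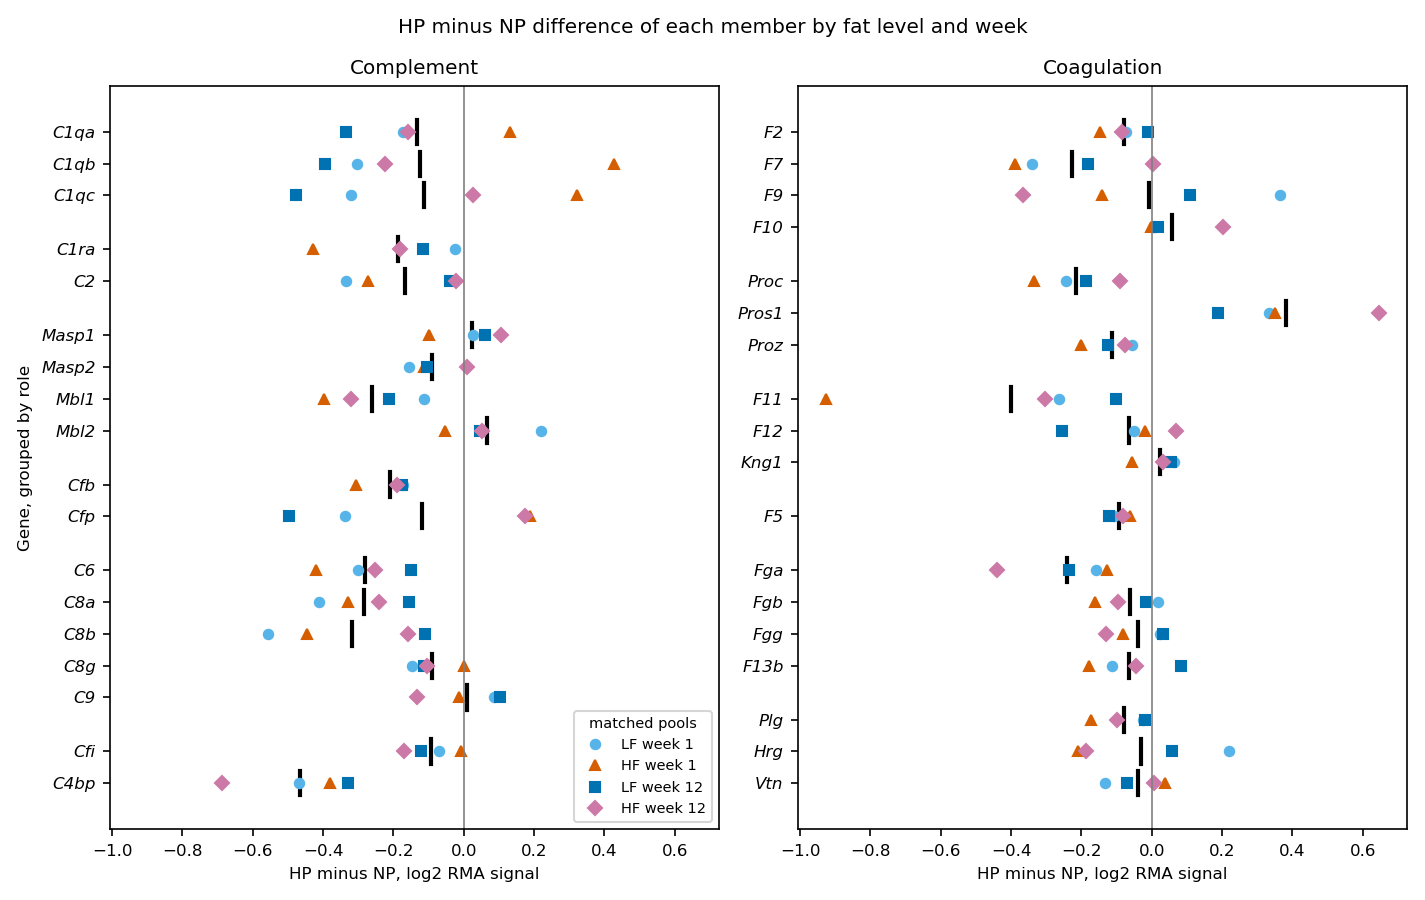
Log2 RMA signal of HP minus that of NP pools (x axis) for each complement gene (left) and coagulation gene (right), grouped by role, with a point for each matched pair of pools and a black bar at the fitted difference. C4bp, C6, C8a, C8b, Mbl1 and Cfb lie below 0 in all 4 pairs, Pros1 lies above 0 in all 4, and the C1q chains and Cfp lie above 0 in the HF pair of week 1.

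Promoter sequences are shown for 3 complement genes with non-overlapping pools and an HNF1 motif, to let the shared letters be read beside their values. The sequences are the 250 bases before the start used in a RefSeq GRCm38.p6 promoter table, written 5′ to 3′ along the gene, and all distances are from that start. The annotated extent of C4bp and C8a begins further upstream, so 39 and 89 of their 250 bases lie inside it. C4bp is at chr1:130661619-130661868 on the minus strand, C8a at chr4:104876399-104876648 on the minus strand and C8b at chr4:104766067-104766316 on the plus strand. Capitals mark matches, on either strand, to HNF1 (GTTAAT), C/EBP (TTNCNNAA) or STAT3 (TTCNNNGAA).
C4bp: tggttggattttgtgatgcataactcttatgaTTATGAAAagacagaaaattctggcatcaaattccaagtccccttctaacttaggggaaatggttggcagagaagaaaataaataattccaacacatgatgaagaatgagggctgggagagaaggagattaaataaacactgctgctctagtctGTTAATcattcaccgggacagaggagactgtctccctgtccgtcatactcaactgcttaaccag
C8a: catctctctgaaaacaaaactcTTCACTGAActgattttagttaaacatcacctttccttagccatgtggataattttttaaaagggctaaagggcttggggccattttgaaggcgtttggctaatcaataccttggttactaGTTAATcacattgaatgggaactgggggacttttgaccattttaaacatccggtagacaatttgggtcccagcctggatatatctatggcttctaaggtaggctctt
C8b: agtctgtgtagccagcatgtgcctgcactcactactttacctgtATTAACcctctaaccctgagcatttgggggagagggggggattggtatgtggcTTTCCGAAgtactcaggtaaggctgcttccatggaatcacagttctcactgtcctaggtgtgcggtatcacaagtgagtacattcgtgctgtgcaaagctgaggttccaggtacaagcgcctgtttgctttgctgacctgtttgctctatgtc

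The HNF1 letters lie 64 to 59 bases before the start in C4bp, 107 to 102 bases before it in C8a and 206 to 201 bases before it in C8b. C4bp and C8b also hold a C/EBP match, at 218 to 211 and 153 to 146 bases before the start, and C8a a STAT3 match at 228 to 220 bases. No capitalised matches overlap. A promoter was found in the table for 28 of the 36 genes. The HNF1 letters were present in 10 of these 28 (35.7%), namely C1ra, C4bp, C8a, C8b, Cfp, F13b, Fga, Fgb, Proz and Vtn, against 6.43% of 32851 promoters of the same length. HNF1 is a hepatocyte transcription factor. By cascade, 5 of 13 complement and 5 of 15 coagulation promoters held the letters. The 3 complement genes shown were picked for these letters, so their sharing was fixed by the choice. C6, C8g, F11 and Mbl1, whose pools did not overlap either, had promoters without the letters. C1ra, Cfp, F13b, Fgb and Vtn held them although their pools overlapped. The STAT3 letters were in 6 of 28 (21.4% against 7.02%), the C/EBP letters in 13 of 28 (46.4% against 36.8%) and the HNF4 letters (CAAAGTC) in 1 of 28 (3.57% against 3.84%). A match is a description of letters in this window and not evidence of binding.

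Among the complement regulators, C4bp had the largest difference of the 36 genes. C4bp encodes C4b-binding protein, which limits the classical and lectin pathways. Here and below, values for single pools are log2 RMA signals in the order LF week 1, HF week 1, LF week 12 and HF week 12. C4bp was 11.39, 11.37, 11.47 and 11.60 in the NP pools and 10.92, 10.99, 11.14 and 10.92 in the HP pools. Every HP pool was below every NP pool. The means were 10.99 ± 0.10 in HP and 11.46 ± 0.11 in NP pools (SD, n = 4 each). The difference of −0.47 (SE 0.07, 95% confidence interval −0.63 to −0.30), or 0.724-fold, had an adjusted p of 0.0515 in limma, just above the threshold. It passed under 6 alternative settings, and with any 1 pool left out it did not (adjusted p 0.0888 to 0.202 in limma). Cfi, the protease that inactivates C3b and C4b, differed by −0.09. The C4bp difference was −0.69 in the HF pools of week 12 and between −0.47 and −0.33 in the other matched pairs.

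The terminal pathway genes C6, C8a and C8b were lower in HP pools by similar amounts. C6 binds C5b at the start of pore assembly, and C8a and C8b encode the α and β chains of C8, which inserts into the membrane. C8a was 11.69, 11.62, 11.69 and 11.63 in the NP pools and 11.28, 11.29, 11.53 and 11.39 in the HP pools. These groups did not overlap, with means of 11.66 ± 0.04 in NP and 11.37 ± 0.12 in HP pools (SD, n = 4 each). The difference was −0.28 (SE 0.06, limma adjusted p = 0.149). C8b was 12.28, 12.44, 12.25 and 12.15 in the NP pools and 11.73, 12.00, 12.14 and 11.99 in the HP pools. The highest HP pool was just below the lowest NP pool. The difference was −0.32 (SE 0.10, limma adjusted p = 0.329), and it was −0.56 and −0.45 in the pairs of week 1 but −0.11 and −0.16 in those of week 12. The test of this change with week gave 0.37 (SE 0.17) and did not pass (limma adjusted p = 1).

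C6 was 11.05, 11.29, 11.12 and 11.06 in the NP pools and 10.75, 10.87, 10.98 and 10.81 in the HP pools. Again no HP pool reached the lowest NP pool, and the difference was −0.28 (SE 0.08, limma adjusted p = 0.271). C8g, the γ chain of C8, differed by −0.09, and its pools did not overlap although the HF pair of week 1 was at 12.11 in both. C9, which forms the wall of the pore, had a difference of 0.01 and opposite signs on LF and HF. C8b and C8a are neighbours on chromosome 4 with no protein-coding gene between them.

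Of the 4 lectin pathway genes, Mbl1 was the only one whose HP and NP pools did not overlap. Mbl1 encodes mannose-binding lectin A, which recognises microbial sugars. It was 10.01, 10.19, 10.20 and 10.28 in the NP pools and 9.90, 9.79, 9.99 and 9.96 in the HP pools. All HP pools were lower than all NP pools, with a difference of −0.26 (SE 0.06, limma adjusted p = 0.198). Mbl2, the second mannose-binding lectin, differed by 0.07, and the associated proteases Masp1 and Masp2 by 0.02 and −0.09.

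In the alternative pathway, Cfb encodes factor B, the protease of the C3 convertase. Cfb was 11.94, 11.99, 11.90 and 11.83 in the NP pools and 11.76, 11.68, 11.72 and 11.64 in the HP pools. The groups did not overlap, and the difference of −0.21 (SE 0.05, limma adjusted p = 0.226) lay between −0.31 and −0.17 in the matched pairs. Its neighbour C2, the equivalent protease of the classical pathway, differed by −0.17. C1ra, a protease of the C1 complex, was 8.12, 8.48, 8.42 and 8.30 in the NP pools and 8.09, 8.05, 8.30 and 8.12 in the HP pools. These values overlapped, and the difference was −0.19 (SE 0.09, limma adjusted p = 0.575), and −0.09 without the HF-NP pool of week 1.

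**Figure D3:**
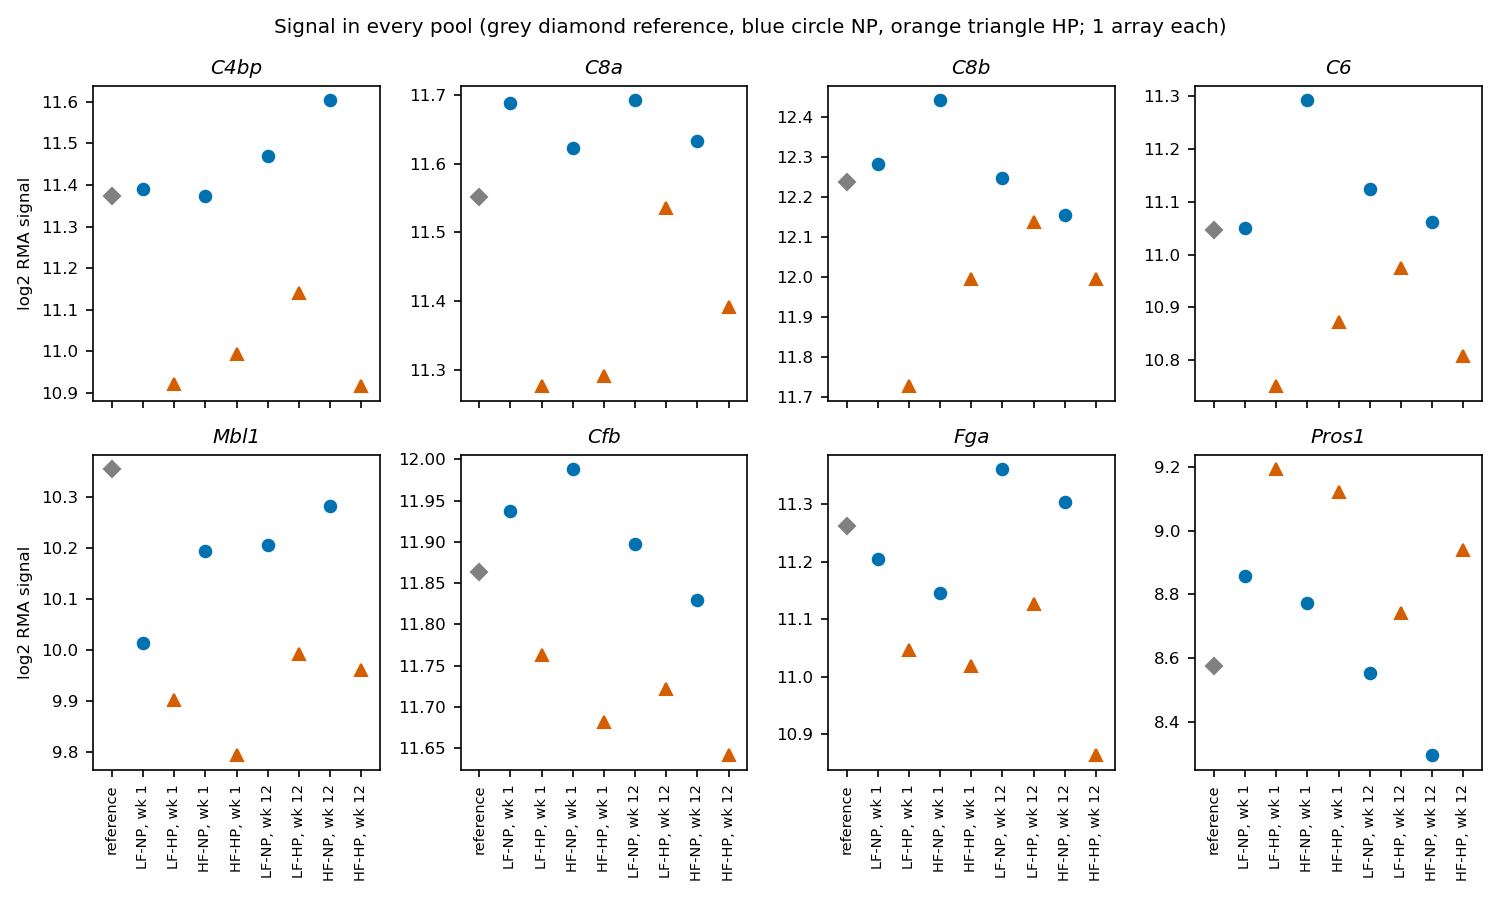
Log2 RMA signal (y axis, a separate scale for each gene) of 8 genes in the reference pool (grey diamond), NP pools (blue circles) and HP pools (orange triangles), 1 array per pool. For C4bp, C8a, C8b, C6, Mbl1, Cfb and Fga every triangle is below every circle, whereas for Pros1 each triangle is above its matched circle.

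Among the coagulation genes, the anticoagulant pair Proc and Pros1 had differences of opposite sign. Proc encodes protein C, which when activated cleaves factors Va and VIIIa, and Pros1 encodes its cofactor protein S. Pros1 was 8.86, 8.77, 8.55 and 8.29 in the NP pools and 9.19, 9.12, 8.74 and 8.94 in the HP pools. It was higher in HP in 4 of 4 matched pairs, by 0.33, 0.35, 0.19 and 0.65, although the LF-HP pool of week 12 was below both NP pools of week 1. The difference was 0.38 (SE 0.08), or 1.30-fold, with a limma adjusted p of 0.126. Proc was 11.38, 11.31, 11.31 and 11.23 in the NP pools and 11.13, 10.97, 11.12 and 11.14 in the HP pools. Its groups did not overlap, with a difference of −0.21 (SE 0.06, limma adjusted p = 0.263). Proz, which encodes the factor Xa inhibitor cofactor protein Z, differed by −0.11, also without overlap.

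The Pros1 promoter is shown because its gene was the only 1 of the 36 with a higher value in every matched HP pool, and the Fga promoter because it holds 3 motifs. Both are on the plus strand of GRCm38.p6, at chr16:62854057-62854306 and chr3:83025903-83026152, with capitals as above.
Pros1: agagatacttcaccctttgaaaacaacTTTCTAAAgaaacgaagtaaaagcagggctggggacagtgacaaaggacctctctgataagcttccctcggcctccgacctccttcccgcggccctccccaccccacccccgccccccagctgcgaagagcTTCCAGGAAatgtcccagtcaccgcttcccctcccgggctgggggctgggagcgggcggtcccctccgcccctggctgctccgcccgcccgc
Fga: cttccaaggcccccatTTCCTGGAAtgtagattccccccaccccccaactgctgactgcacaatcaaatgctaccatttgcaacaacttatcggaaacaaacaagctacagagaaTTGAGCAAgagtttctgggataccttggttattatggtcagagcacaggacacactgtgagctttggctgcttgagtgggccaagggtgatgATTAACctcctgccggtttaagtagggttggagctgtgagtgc

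In Pros1 the capitals are a C/EBP match 223 to 216 bases and a STAT3 match 92 to 84 bases before the start, and the HNF1 letters are not in this window. In Fga they are, from the left, STAT3 (234 to 226 bases), C/EBP (135 to 128 bases) and HNF1 (43 to 38 bases before the start). The promoter of its neighbour Fgb, not shown, also holds matches to these 3 motifs. Fgb differed by −0.06 with overlapping pools.

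F11 had the most negative difference of the coagulation genes. It encodes factor XI, which activates factor IX. F11 was 9.70, 10.04, 9.45 and 9.56 in the NP pools and 9.43, 9.11, 9.35 and 9.26 in the HP pools. The groups did not overlap, but the difference of −0.40 (SE 0.12, limma adjusted p = 0.299) was unevenly spread, at −0.93 in the HF pair of week 1 and between −0.30 and −0.10 in the other 3 pairs. The contact factors F12 and Kng1, which encode factor XII and kininogen, differed by −0.06 and 0.02.

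The vitamin K-dependent procoagulants did not share a direction. F7, the factor that starts coagulation with tissue factor, was 10.07, 9.90, 9.89 and 9.59 in the NP pools and 9.73, 9.51, 9.71 and 9.59 in the HP pools. Its difference of −0.23 (SE 0.08, limma adjusted p = 0.336) was close to 0 in the HF pair of week 12. F9, the factor missing in haemophilia B, was 10.24, 10.46, 10.38 and 10.66 in the NP pools and 10.60, 10.32, 10.49 and 10.29 in the HP pools. The HP minus NP difference was 0.37 and 0.11 on LF and −0.14 and −0.36 on HF, with a fitted value of −0.01 (SE 0.11) that ranged from −0.11 to 0.09 with a pool left out. F2 (prothrombin) and F10 (factor X) differed by −0.08 and 0.06. F10 lies between F7 and Proz with no other protein-coding gene between them, and the 3 differences were −0.23 (F7), 0.06 (F10) and −0.11 (Proz). F5 encodes factor V, the cofactor of factor Xa, and was 11.37, 11.37, 11.46 and 11.48 in the NP pools and 11.27, 11.31, 11.34 and 11.40 in the HP pools. The difference was −0.09 (SE 0.05, limma adjusted p = 0.626), below 0 in all 4 pairs, with overlapping groups.

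Fibrinogen is assembled from 3 chains encoded by neighbouring genes on chromosome 3, and their HP minus NP differences were unequal. Fga was 11.21, 11.15, 11.36 and 11.30 in the NP pools and 11.05, 11.02, 11.13 and 10.86 in the HP pools. These groups did not overlap, and the difference was −0.24 (SE 0.07, limma adjusted p = 0.271). Fgb was 13.08, 13.11, 13.11 and 13.11 in the NP pools and 13.09, 12.95, 13.10 and 13.02 in the HP pools. Fgg was 13.08, 13.10, 13.10 and 13.11 in the NP pools and 13.11, 13.02, 13.13 and 12.98 in the HP pools. Both overlapped, with differences of −0.06 (SE 0.06, limma adjusted p = 0.794) for Fgb and −0.04 (SE 0.06, limma adjusted p = 0.888) for Fgg. With a pool left out Fgb ranged from −0.085 to −0.037, the latter without HF-HP week 1, and Fgg from −0.061 to −0.011, the latter without HF-HP week 12. Fga had 2 probe sets, of which that with the higher mean signal was used, whereas Fgb and Fgg had 1 each. The inequality between the chains was not itself tested. F13b, the carrier subunit of the fibrin cross-linking factor XIII, differed by −0.06.

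The genes of fibrinolysis and of adhesive plasma proteins had differences of −0.08 to −0.03. Plg, which encodes plasminogen, the precursor of the fibrin-cleaving plasmin, was 12.89, 12.92, 12.84 and 12.81 in the NP pools and 12.87, 12.75, 12.82 and 12.71 in the HP pools. These overlapped, with a difference of −0.08 (SE 0.05, limma adjusted p = 0.727). Hrg, encoding histidine-rich glycoprotein, differed by −0.03 and Vtn, encoding vitronectin, by −0.04.

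Set against the single reference pool of week 0, 20 of the 36 genes were lower in all 4 HP pools, against 18.3% of all genes. All 4 NP pools were lower for 5 genes (Mbl1, Mbl2, Kng1, Fgb and Fgg), against 14% of all genes. C4bp was 0.02, −0.00, 0.10 and 0.23 from the reference in the NP pools and −0.45, −0.38, −0.23 and −0.46 in the HP pools. Pros1 was above the reference in all 4 HP pools, by 0.62, 0.55, 0.17 and 0.37, and was −0.02 and −0.28 from it in the NP pools of week 12. Mbl1 was below the reference in all 8 diet pools, at −0.34, −0.16, −0.15 and −0.07 in the NP pools and −0.45, −0.56, −0.36 and −0.39 in the HP pools. The reference is 1 pool, so these differences have no test.

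**Figure D4:**
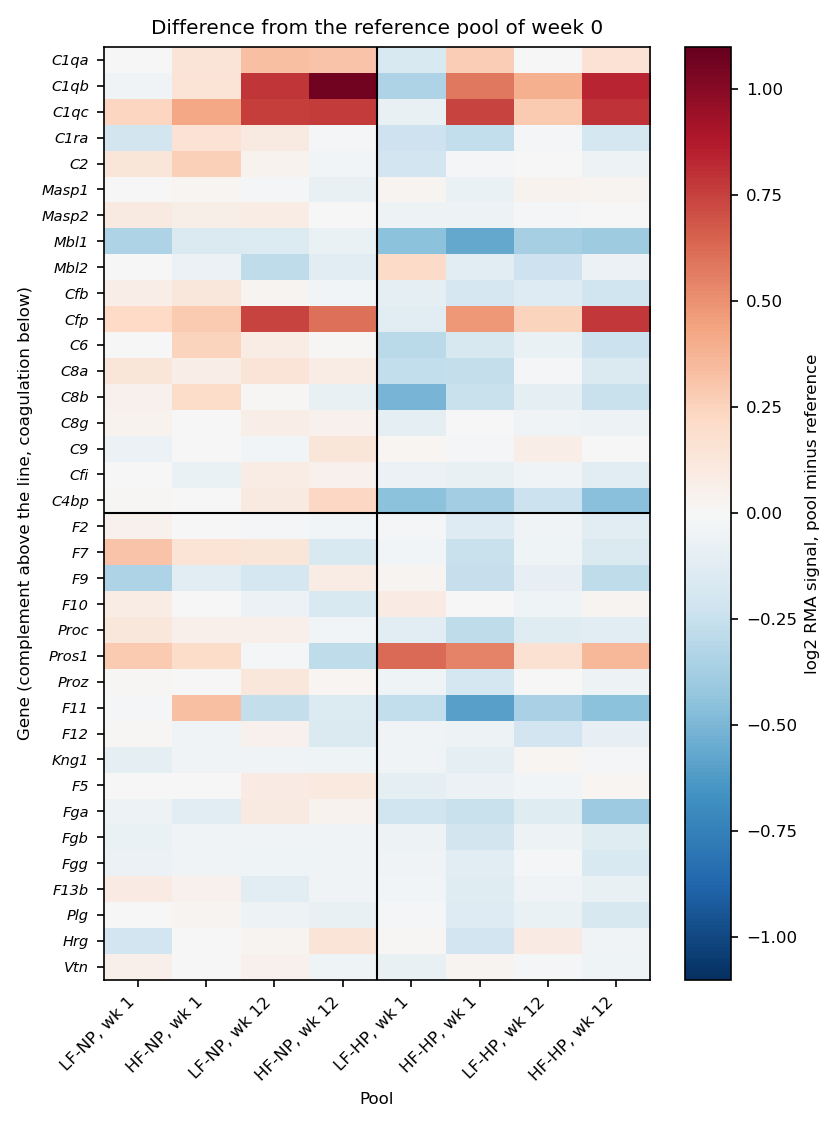
Difference in log2 RMA signal between each diet pool (columns, NP left and HP right of the vertical line) and the reference pool of week 0 for the 36 genes (rows, complement above and coagulation below the horizontal line), with blue for lower and red for higher values. The right side is blue in all 4 columns for 20 genes, and C1qb, C1qc and Cfp hold the darkest red cells, up to 1.06 for C1qb in the HF-NP pool of week 12.

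In the additive fit the myeloid genes had larger differences by week and fat level than by protein. Their HP minus NP medians were −0.31 and −0.44 on LF in week 1 and week 12. On HF they were 0.26 and −0.07, so the fitted protein difference averaged unlike values. C1qa, C1qb and C1qc encode the chains of C1q, the recognition protein of the classical pathway, and lie side by side on chromosome 4. C1qb was 9.12, 9.31, 9.95 and 10.22 in the NP pools and 8.82, 9.74, 9.55 and 10.00 in the HP pools. It was higher in week 12 than in week 1 at each diet, and its overall HP minus NP difference of −0.12 (SE 0.13, limma adjusted p = 0.833) was smaller than its error. C1qc was 8.11, 8.29, 8.63 and 8.64 in the NP pools and 7.79, 8.62, 8.16 and 8.67 in the HP pools. C1qa was 7.82, 7.96, 8.15 and 8.13 in the NP pools and 7.65, 8.09, 7.81 and 7.97 in the HP pools. Neither showed separated HP and NP groups, with differences of −0.11 (SE 0.13, limma adjusted p = 0.852) for C1qc and −0.13 (SE 0.09, limma adjusted p = 0.703) for C1qa. Cfp encodes properdin, which stabilises the alternative pathway convertase, and was 7.89, 7.96, 8.41 and 8.27 in the NP pools and 7.55, 8.15, 7.91 and 8.45 in the HP pools. Its HP minus NP difference was −0.34 and −0.50 on LF and 0.19 and 0.18 on HF, with a fitted value of −0.12 (SE 0.12, limma adjusted p = 0.831). The HP minus NP values of these genes rested on single pools. Without the HF-HP pool of week 1 they were −0.23 for C1qa, −0.29 for C1qb, −0.25 for C1qc and −0.21 for Cfp, and without the LF-NP pool of week 12 they were −0.06, −0.03, 0.01 and −0.01.

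The promoter of C1qb, at chr4:136886201-136886450 on the minus strand of GRCm38.p6, is shown as an example of a myeloid gene. None of the 4 motifs matched in its 250 bases, so it holds no capitals. This absence did not set myeloid genes apart. The promoter of C1qc held a C/EBP match and that of Cfp the HNF1 letters. Hepatocyte-derived genes such as F2, F5, F7 and Mbl1 also had promoters without any of the motifs.
C1qb: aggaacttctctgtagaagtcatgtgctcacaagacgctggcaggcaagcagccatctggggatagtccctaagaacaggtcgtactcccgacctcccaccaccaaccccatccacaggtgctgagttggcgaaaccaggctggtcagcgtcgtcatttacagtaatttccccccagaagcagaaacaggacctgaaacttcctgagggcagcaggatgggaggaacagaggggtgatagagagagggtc

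In the comparison of fat levels (HF minus LF), no gene on the array passed the adjusted threshold in limma (0% of all genes), and 664 genes had an unadjusted p under 0.05. Of the 36 genes, 22 were below 0 (49.6% of all genes) and 3 had an unadjusted p under 0.05 (3.33% of all genes), 2 of them higher (1.8%) and 1 lower (1.53%), namely C1qb (0.46, SE 0.13, limma adjusted p = 0.999), C1qc (0.38, SE 0.13) and F7 (−0.20, SE 0.08). Without the HF-HP pool of week 1, C1qb was 0.30 and C1qc 0.24. In NP pools the C1q chains averaged 8.35 (LF) and 8.52 (HF) in week 1, and 8.91 and 9.00 in week 12. In HP pools they averaged 8.09 and 8.81 in week 1, and 8.51 and 8.88 in week 12. The coagulation median was −0.05, with 15 of 18 genes below 0, and the complement median was 0.02, with 7 of 18 below 0. The 4 myeloid genes were all above 0 with a median of 0.32, whereas 22 of the 32 hepatocyte-derived genes were below 0 with a median of −0.03. Cfp was 7.89 (LF) and 7.96 (HF) in NP pools of week 1, and 8.41 and 8.27 in those of week 12. In HP pools it was 7.55 and 8.15 in week 1, and 7.91 and 8.45 in week 12. In the additive fit 18 of 18 Kupffer cell and macrophage markers were also above 0, with a median of 0.29. In NP pools their summed log2 signal was 11.90 (LF) and 11.91 (HF) in week 1, and 12.34 and 12.32 in week 12. In HP pools it was 11.59 and 12.27 in week 1, and 11.84 and 12.32 in week 12. The higher summed signal of these markers on HF was thus seen in HP pools and not in NP pools. Their summed log2 signal was 11.59 to 12.34 in LF and 11.91 to 12.32 in HF pools, and endothelial markers were above 0 in 9 of 9 cases with a median of 0.11 (summed log2 signal 11.72 to 12.08 in LF and 11.84 to 12.11 in HF pools). Stellate markers were above 0 in 8 of 10 cases with a median of 0.03. The part of these lists in the C1q values was not tested. In whole liver, fewer cells of a type and less RNA per cell cannot be told apart.

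Between week 12 and week 1, none of the 36 genes passed (0.00502% of all genes did), and 4 had an unadjusted p under 0.05 against 7.71% of all genes, 3 of them higher (2.42%) and 1 lower (5.3%). Below 0 were 14 of the 36, against 54.6% of all genes. C1qb differed by 0.68 (SE 0.13) and Pros1 by −0.35 (SE 0.08), each with a limma adjusted p of 0.499. Cfp (0.38, SE 0.12) and C1qc (0.32, SE 0.13) were the other two. The myeloid median was 0.35 and the hepatocyte-derived median 0.00. Of the 18 macrophage markers, 16 were above 0, with a median of 0.24 and a summed log2 signal of 11.59 to 12.27 in week 1 and 11.84 to 12.34 in week 12. Endothelial markers were above 0 in 7 of 9 cases with a median of 0.10. Their part in the C1q and properdin values was not tested. Time on the diets and age at killing increased together and cannot be told apart.

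The HP minus NP difference at the HF level was also compared with that at the LF level. No gene on the array passed the adjusted threshold in limma (0%), and 1400 genes had an unadjusted p under 0.05. Of the 36 genes, 20 were below 0 (43.4% of all genes) and 4 had an unadjusted p under 0.05 (7.02% of all genes), 2 of them positive (4.79%) and 2 negative (2.23%). The interaction was 0.60 (SE 0.13, limma adjusted p = 0.547) for Cfp and 0.57 (SE 0.17, limma adjusted p = 0.678) for C1qc, both more positive on HF. It was −0.49 (SE 0.14, limma adjusted p = 0.678) for F9 and −0.34 (SE 0.11, limma adjusted p = 0.700) for Hrg. At both weeks HP was below NP on LF and above it on HF for C1qc, Cfp and Vtn, 3 of the 36 against 6.6% of all genes, and the reverse held for C9, F9, Fgg and Hrg, 4 of the 36 against 3.41%. The 4 myeloid genes had a median interaction of 0.51, beside 0.03 over all genes. Macrophage markers had a median of 0.59, with 17 of 18 above 0 and 12 with an unadjusted p under 0.05, and their part in the myeloid values was not tested. For example, the macrophage marker Adgre1 (F4/80) had an interaction of 0.93 (SE 0.12, limma adjusted p = 0.453), a gene named after its value was seen. Endothelial markers were also above 0 in 9 of 9 cases with a median of 0.29 and stellate markers in 8 of 10 with a median of 0.14, whereas hepatocyte markers were below 0 in 9 of 9 with a median of −0.10. The corresponding interaction of protein with week gave 0 of 36 genes with an unadjusted p under 0.05 (2.62% of all genes), and the smallest p values were those of F7 (0.28, SE 0.12) and C8b (0.37, SE 0.17).

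**Figure D5:**
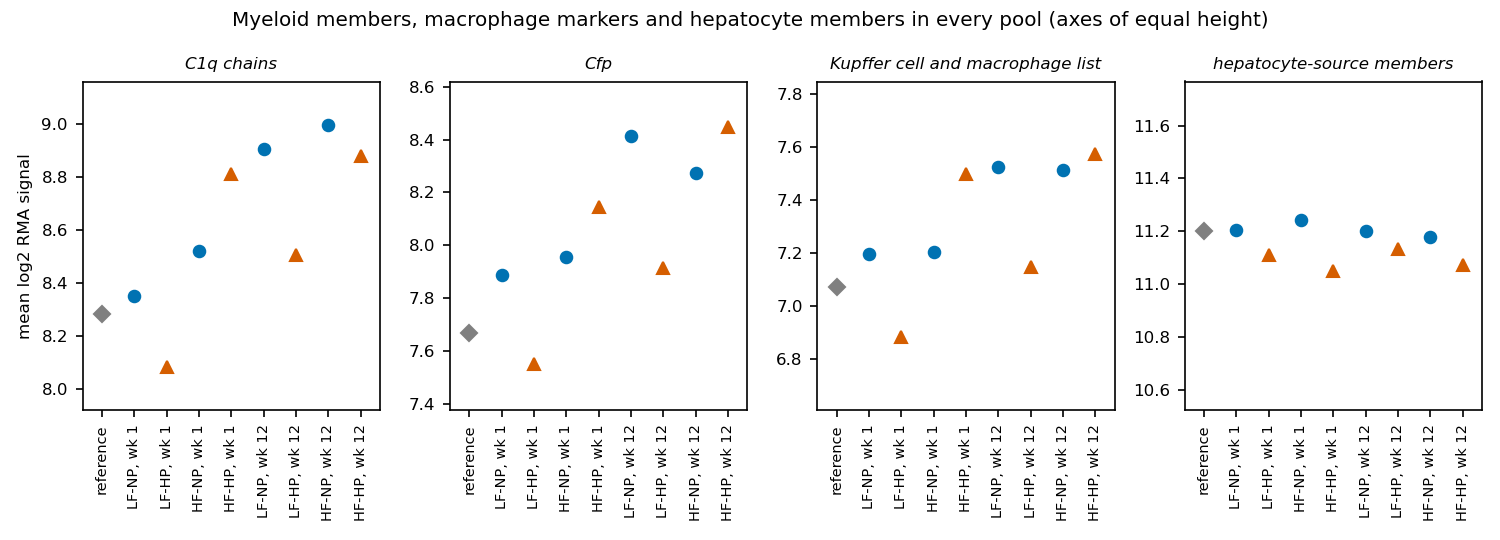
Mean log2 RMA signal (y axes of equal height but different position) of the C1q chains, Cfp, 18 Kupffer cell and macrophage markers and 32 hepatocyte-derived genes in the reference pool (grey diamond), NP pools (blue circles) and HP pools (orange triangles). The first 3 panels share their lowest diet pool, LF-HP week 1 (8.09, 7.55 and 6.88), whereas the hepatocyte-derived genes lie between 11.05 and 11.24 with every HP pool below every NP pool.

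The other genes of both systems were described from lists of related genes. Of 24 measured further complement genes, 16 were below 0 in HP minus NP (51.9% of all genes) with a median of −0.03. None of the 24 passed the adjusted threshold in limma (0.441% of all genes), and 4 had an unadjusted p under 0.05, all lower (5.66% of all genes). C1s1, the partner protease of C1r, differed by −0.38 (limma adjusted p = 0.0890) and C1rl by −0.19. Of 26 further coagulation genes, 18 were below 0 (51.9% of all genes) with a median of −0.07, 0 passed in limma (0.441%) and 3 were lower at an unadjusted p under 0.05 (5.66%). Itih1, an inter-α-trypsin inhibitor heavy chain, differed by −0.26 (limma adjusted p = 0.128) and Ggcx, the vitamin K-dependent γ-carboxylase, by −0.18. The first genes of that list, F3 (tissue factor) and F8 (factor VIII), differed by −0.19 and −0.08. Acute phase genes did not share this direction in the fit over both weeks, with 12 of 23 below 0. Their HP minus NP medians were 0.13 (LF) and 0.04 (HF) in week 1, but −0.18 and −0.23 in week 12. Their interaction of protein with week was below 0 for 23 of 23 (49.9% of all genes). None of these interactions passed the adjusted threshold in limma (0% of all genes). Apcs, serum amyloid P, differed by 0.50 (limma adjusted p = 0.0527) and Orm2, an orosomucoid, by 1.44 (limma adjusted p = 0.118), whereas the serum amyloid genes Saa1 and Saa2 differed by 0.06 and 0.32. Of 15 hepatocyte regulators, 12 were below 0 (51.9% of all genes) with a median of −0.18, 0 passed in limma (0.441%) and 7 were lower at an unadjusted p under 0.05 (5.66%). Among them Esr1, the oestrogen receptor, differed by −0.34 and Ppara, a regulator of fatty acid oxidation, by −0.21, whereas Hnf4a and Foxa1, named as the first of their list, differed by 0.06 and −0.24.

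Summed signals of cell type markers overlapped between HP and NP pools, except those of the adipocyte list. Of 9 hepatocyte markers, 7 were below 0 with a median of −0.02 (Alb −0.01, Apoa1 −0.10, Hpd 0.24). Macrophage markers were below 0 in 15 of 18 cases with a median of −0.12, and their summed log2 signal overlapped, at 11.59 to 12.32 in HP and 11.90 to 12.34 in NP pools. The medians of the other lists were −0.10 for neutrophils and monocytes, −0.02 for endothelial cells, −0.02 for stellate cells and −0.04 for cholangiocytes. No marker of these lists passed the adjusted threshold in limma. Among the macrophage markers Clec4f differed by −0.26, Vsig4 by −0.15 and Marco by 0.21. Among neutrophil and monocyte markers S100a8 differed by 0.06, S100a9 by −0.10, Plac8 by −0.30 and Cxcr2 by −0.12. The endothelial markers Stab1, Stab2 and Lyve1 differed by 0.06, 0.14 and 0.53, and Kdr by −0.15. The stellate markers Lrat, Reln, Hgf and Ecm1 differed by −0.13, −0.02, −0.22 and −0.14, and the cholangiocyte markers Krt19, Krt7 and Cftr by −0.17, −0.04 and −0.10. The adipocyte list had a median of −0.01 but a summed log2 signal of 13.22 to 13.47 in HP and 13.49 to 13.66 in NP pools, which did not overlap. Car3, which liver also expresses, lay between 13.15 and 13.62 in the diet pools, without overlap of HP and NP pools. It differed by −0.27 (limma adjusted p = 0.178). Lipe, the next highest gene of the list, lay between 7.46 and 7.93 in the diet pools and differed by 0.25. The summed signal of the list was therefore mainly that of Car3. The adipocyte-defining Adipoq lay between 3.19 and 3.40 in the diet pools, near the low end of the array's range of 1.41 to 14.46, and differed by 0.04, and Lep differed by 0.12. The part of this list in the hepatocyte-derived values was not tested.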

How the data were processed

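RNA from pooled livers was hybridised to Affymetrix Mouse Gene 1.0 ST arrays, 1 per pool. The deposited values are log2 expression values made by the authors with RMA, which corrects background, applies quantile normalization across arrays and summarises probes. The study's methods describe probes regrouped by Entrez gene, but the row identifiers are the array's own probe sets, so how probes were grouped in the deposited values is uncertain. Quantile normalization removes any shift common to most genes.

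Of 35556 probe sets, 21789 named 1 gene, 1621 named several and 12146 named none here. Symbols were updated through their Entrez identifiers, and 19938 genes were tested. C1ra has a closely similar paralogue, so its signal is uncertain. Groups were taken from the sample labels. Limma 3.58.1 in R 4.3.3 fitted an additive model of protein, fat and week to the 8 diet pools (4 residual degrees of freedom), and interactions were added in separate fits (3 residual degrees of freedom). P values were adjusted by Benjamini-Hochberg over all genes with a threshold of 0.05, two-sided. Tables were made in Python 3.11.15 (pandas 2.3.3 with NumPy 2.4.6), and plots with matplotlib 3.10.9.

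The members and lists were chosen with earlier results of these data known. Values in every pool are given for genes past the adjusted threshold in any comparison, with an unadjusted p under 0.01 in HP minus NP, or with the largest difference in their role, for the C1q and fibrinogen chains, and for the 2 genes with the smallest p in each other comparison. For related lists, the 2 genes with the smallest p and the 2 listed first are named. Alternatives covered covariates, filters, prior variance, weights, scaling, matched pools as a block, single weeks and fat levels, probe sets and each pool left out. Promoters came from RefSeq (GRCm38.p6).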

Additional observations from a re-analysis of the deposited data

Results flagged for a closer look

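In groups of 4 pools, the most distant pool was compared with the range of its group, using the gap to its nearest neighbour as a share of that range. Of 72 such groups (36 genes, HP and NP pools), 4 exceeded the critical value of 0.829. For true replicates chance gives about 1 in 20. The 4 pools of a group differed in fat and week, so this rate need not apply here. The HF-HP pool of week 1 lay apart from the other HP pools for Masp1 (0.879 of the range) and for Proc (0.886). The LF-NP pool of week 12 lay apart from the other NP pools for Proz (0.878), and the LF-NP pool of week 1 for Fgb (0.931).

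For 7 genes the HP minus NP difference had opposite signs on LF and HF at both weeks. C1qc (interaction 0.57, limma adjusted p = 0.678), Cfp (0.60, limma adjusted p = 0.547) and Vtn (0.12, limma adjusted p = 0.787) were lower in HP on LF and higher on HF, a pattern of 6.6% of all genes. C9 (−0.17, limma adjusted p = 0.743), F9 (−0.49, limma adjusted p = 0.678), Fgg (−0.13, limma adjusted p = 0.768) and Hrg (−0.34, limma adjusted p = 0.700) showed the reverse, a pattern of 3.41% of all genes. None of the 7 interactions passed.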

How the results depend on the processing

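No gene of the 36 passed in HP minus NP, but C4bp did under 7 alternatives, where the number of genes passing was 1: without covariates (adjusted p = 0.0418 in limma), with genes above the median level alone (0.0177), with an intensity trend (0.0315), with array weights (0.0329), with arrays centred (0.0275), with the mean of all probe sets (0.0490) and at an adjusted p of 0.1. With matched pools as a replicate block 0 genes passed and C4bp had an adjusted p of 0.0947. Leaving out each pool in turn gave 0 to 0 genes, with C4bp between 0.0888 and 0.202. All genes passing numbered 88, and 74 without covariates, 219 with the filter, 118 with the trend, 140 with weights, 152 with centring, 39 with the block, 114 with mean probe sets, 1 to 36 with a pool left out and 0 in single weeks or fat levels.

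The complement median was −0.18 in LF pools alone and −0.081 in HF pools alone, and −0.203 to −0.085 with a pool left out. The coagulation median was −0.12 in HF pools alone and −0.09 to −0.05 with a pool left out. Over all alternatives 14 to 17 complement and 11 to 15 coagulation genes were below 0. Genes with an unadjusted p under 0.05 in limma numbered 11, but 1 in week 12 alone and 6 in HF pools alone. Those fits held fewer pools and fewer residual degrees of freedom, and 0 of all 19938 genes passed the adjusted threshold in them. The lower counts therefore do not show a smaller difference. The HP minus NP differences of 6 genes reversed in sign. C1qb was 0.061 in week 1 alone and 0.10 in HF pools alone. C1qc was 0.0012 and 0.17 there, and −0.25 to 0.0095 with a pool left out (0.0095 without LF-NP week 12). Cfp was 0.18 in HF pools alone. F9 was 0.068 with array weights, 0.11 in week 1 alone, 0.24 in LF pools alone and −0.11 to 0.090 with a pool left out, being above 0 without any 1 HF pool. In LF pools alone Fgb was 0.0021 and Fgg 0.029. The causes were not tested. The other 15 genes with values given for every pool kept their HP minus NP direction, and no gene of the 36 passed for fat or week under the alternatives run. With other baselines 20 to 24 genes were below in all HP pools.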
